A study of Mus musculus with 16 samples.

Results

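Amino acid breakdown in the mouse heart was described through 36 genes: 21 of the pathway that degrades the branched-chain amino acids leucine, isoleucine and valine, and 15 that act on glutamate, aspartate, alanine, lysine, tryptophan, proline, GABA and glycine. They were chosen by symbol, as members of these routes, with earlier results of these data known. Their counts beside the shares over all genes are therefore a description and not an independent test. Each symbol matched 1 of the 55487 gene identifiers in the count table (the gene for methylmalonyl-CoA mutase under its older symbol, Mut). All 36 passed the filter on low counts, which kept 18275 genes. The 16 libraries came from the heart apex of male mice, 4 in each of 4 groups, which combine a genotype (Ctrl or KO) with an operation (sham or TAC). Ctrl mice were labelled WT. KO mice were labelled CARDINAL-KO and lack Cardinal, a heart-enriched long noncoding RNA, after CRISPR/Cas9 editing that affects every tissue. TAC, transverse aortic constriction, loads the left ventricle by narrowing the aorta, and sham mice had the operation without the ligature. Hearts were taken 4 weeks after surgery, and the ages of the mice are not given in the sources used here.

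Breakdown of branched-chain amino acids begins with a reversible transamination to branched-chain keto acids, which the mitochondrial branched-chain keto acid dehydrogenase complex (BCKDH) then commits to oxidation. A kinase, encoded by Bckdk, phosphorylates and inactivates that complex, and a phosphatase, encoded by Ppm1k, reactivates it. Leucine yields acetyl-CoA and acetoacetate, whereas valine and part of isoleucine pass through propionyl-CoA to succinyl-CoA of the citric acid cycle. Loss of this pathway's transcripts is a known feature of failing hearts.

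Libraries held 53169437 to 79404714 counts over 24458 to 26388 detected genes. Levels are given as CPM, counts scaled to a common library total after TMM adjustment, in the order of replicates 1 to 4, with SD over n = 4 libraries for group means. Cardinal itself was at 3.24 to 3.86 CPM in Ctrl sham, 2.69 to 8.02 CPM in Ctrl TAC, 0.297 to 0.553 CPM in KO sham and 0.276 to 0.371 CPM in 3 KO TAC libraries. It was at 4.55 CPM in the library labelled KO TAC 4, which goes against that label, so counts that rest on this library are given with and without it. A separate library, Ctrl TAC 2, held 66.3 CPM in sum of 4 hepatocyte transcripts (Alb, Apoa1, Ttr and Cyp2e1), against 2.52 to 6.51 CPM in the other 15. The cardiomyocyte markers were abundant in every library, at 39500 to 60100 CPM in sum over 9 genes. Each library carries its own animal number in the labels.

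The 36 genes were expressed over a wide range in Ctrl sham hearts. Per kilobase of annotated exon, the aspartate transaminases were the most abundant, with Got1 at 272 ± 33 CPM per kb and Got2 at 170 ± 9.65 CPM per kb, followed by the BCKDH subunit Bckdha at 113 ± 10.1 CPM per kb. Its partner subunits Bckdhb and Dbt were at 30.2 ± 2.23 and 25.3 ± 1.45 CPM per kb. The lowest were the cytosolic branched-chain transaminase Bcat1, at 0.0994 ± 0.0229 CPM per kb, and the glycine decarboxylase Gldc, at 0.0679 ± 0.0435 CPM per kb. Exons of 13 members overlap those of another gene, among them Bckdha (1171 bases shared with B3gnt8 on the other strand) and Aldh4a1 (1595 bases shared with Gm21969), so the values of these genes are less certain.

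The genes lie on 17 chromosomes, with at most 5 on any of them. RefSeq promoters of 300 bases (250 before and 50 after the start, GRCm38.p6) were matched for 31 of the 36. AGGTCA, the half-site read by nuclear receptors of the ERR and PPAR families, was searched on both strands (TGACCT on the other). It occurred in 9 of the 31 (29.0%), against 18.1% of 27025 genes. The longer AAGGTCA, which contains it, occurred in 2 of the 31 (6.45%), Amt and Got1, against 5.38% of all genes. The promoters of 4 genes whose values are described below are shown, read 5′ to 3′ along each gene's strand, with the half-site in capitals. Bckdhb lies at chr9:83924887-83925186 on the plus strand, and the minus-strand promoters are Ppm1k at chr6:57535438-57535737, Got1 at chr19:43524556-43524855 and Got2 at chr8:95888352-95888651. The half-site starts 119 bases upstream of the start in Bckdhb, 124 in Ppm1k, 244 in Got1 and 103 in Got2. A match describes these letters and not a bound site.
Bckdhb: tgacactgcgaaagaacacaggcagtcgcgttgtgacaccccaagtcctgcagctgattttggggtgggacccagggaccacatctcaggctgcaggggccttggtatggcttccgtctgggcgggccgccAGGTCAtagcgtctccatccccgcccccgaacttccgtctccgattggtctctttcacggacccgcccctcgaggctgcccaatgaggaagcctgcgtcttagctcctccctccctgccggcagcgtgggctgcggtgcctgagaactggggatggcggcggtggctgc
Ppm1k: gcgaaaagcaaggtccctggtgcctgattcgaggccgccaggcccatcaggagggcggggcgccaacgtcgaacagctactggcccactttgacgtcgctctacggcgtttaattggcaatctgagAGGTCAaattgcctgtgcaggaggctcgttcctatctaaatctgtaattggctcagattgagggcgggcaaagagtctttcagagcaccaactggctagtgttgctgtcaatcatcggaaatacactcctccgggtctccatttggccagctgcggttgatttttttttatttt
Got1: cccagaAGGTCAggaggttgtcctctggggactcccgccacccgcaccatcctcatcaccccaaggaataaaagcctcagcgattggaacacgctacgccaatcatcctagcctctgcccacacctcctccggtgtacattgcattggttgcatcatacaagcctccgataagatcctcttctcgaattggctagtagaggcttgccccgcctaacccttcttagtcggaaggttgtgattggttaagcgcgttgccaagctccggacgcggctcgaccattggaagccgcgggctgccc
Got2: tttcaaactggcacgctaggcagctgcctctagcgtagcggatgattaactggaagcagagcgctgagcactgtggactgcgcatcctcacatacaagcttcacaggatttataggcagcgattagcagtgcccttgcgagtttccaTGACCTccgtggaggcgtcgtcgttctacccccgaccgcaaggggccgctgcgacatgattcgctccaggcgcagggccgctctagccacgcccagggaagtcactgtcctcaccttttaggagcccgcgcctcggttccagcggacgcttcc

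The question put to the 36 genes was how their transcripts respond to pressure overload with and without Cardinal. In Ctrl hearts TAC lowered 27 of them and raised 1, Abat, at an adjusted p under 0.05 (edgeR quasi-likelihood test, Benjamini-Hochberg over all genes tested). Over all genes tested, 9.60% were lower and 10.4% higher in that comparison. In KO hearts TAC lowered 31 and raised 1, Bcat1, where 16.5% of all genes were lower and 17.8% higher. The median log2 fold change of the 36 was -0.34 in Ctrl and -0.58 in KO hearts, and the median over all genes was 0.004 and -0.004. Every TAC library lay below every sham library for 24 of the 36 in Ctrl hearts (9.97% of all genes) and for 31 in KO hearts (16.6% of all genes). Without the library labelled KO TAC 4, 31 genes were still lower in KO hearts and Bcat1 was no longer called.

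Some of the 36 were lower in KO than in Ctrl hearts after TAC, whereas after sham surgery none was called. After sham surgery edgeR called none of the 36 and 0 of the 18275 genes tested, so the lack of calls there was not particular to these genes. Of the 36, 1 had an unadjusted p under 0.05 (2.62% of all genes), and DESeq2 called none (0.0164% of all genes). After TAC, 12 of the 36 were lower in KO than in Ctrl and none higher, where 2.68% of all genes were called, 1.32% lower and 1.36% higher. All 36 log2 fold changes were below 0, as were 50.5% over all genes, and the median was -0.22. Of the 36, 26 had an unadjusted p under 0.05 (18.5% of all genes, 9.22% counting those lower). Every KO TAC library lay below every Ctrl TAC library for 22 of the 36 (4.99% of all genes). Without the library labelled KO TAC 4 the count was 11, with Bckdhb lost (2.37% of all genes called), and without Ctrl TAC 2 it was 1, with Aldh6a1 alone still called (0.342% of all genes). The count was 2 without Ctrl TAC 3 (1.03% of all genes), 19 without Ctrl TAC 4 (3.96%), 6 without KO TAC 1 (1.4%), 3 without KO TAC 2 (0.817%) and 1 without KO TAC 3 (0.452%). The share called over all genes thus moved in the same direction as the count of members, and in each of these fits at least 35 of the 36 estimates were below 0.

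A test of whether TAC acted differently in the 2 genotypes called none of the 36 by edgeR (0.0109% of all genes), although 21 had an unadjusted p under 0.05 (11.1% of all genes, 5.31% with a negative estimate) and 35 had a negative estimate (50.1% of all genes), with a median of -0.24. DESeq2 called 1, Prodh, at -0.56 with an adjusted p of 0.0424 (0.722% of all genes). Without the library labelled KO TAC 4, edgeR also called none of the 36 (0.00541% of all genes). The comparisons of KO TAC with KO sham and with Ctrl TAC share the KO TAC libraries and are therefore not independent of each other.

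**Figure D1:**
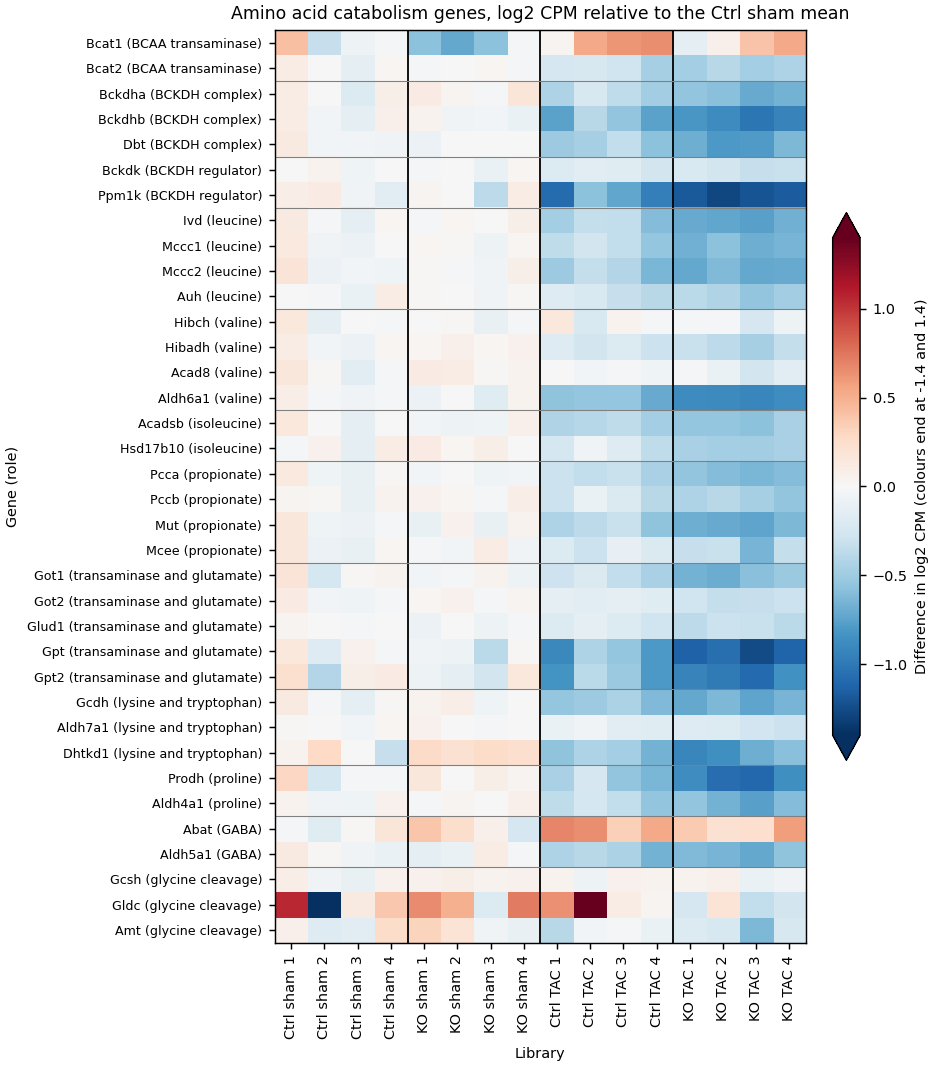
Difference in log2 CPM from the Ctrl sham mean for each of the 36 genes (rows, by role) in each of the 16 libraries (columns). Most rows turn blue in the Ctrl TAC libraries and a deeper blue in the KO TAC libraries, while Abat is red in the TAC columns, Bcat1 is red in most of them, and Hibch and Gcsh stay near white. The Gldc row, from few counts, runs past both ends of the colour scale.

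For the first step, transamination of the branched-chain amino acids, almost all transcripts were of Bcat2, which encodes the mitochondrial enzyme. Bcat2 was measured at 98.9, 91.5, 84.4 and 93.5 CPM in Ctrl sham and at 90.2, 92, 93.8 and 91.1 CPM in KO sham. In Ctrl TAC, Bcat2 was at 77.9, 78.4, 76 and 66.5 CPM, and in KO TAC it was at 66.1, 70.3, 66.2 and 68 CPM. All Ctrl TAC libraries lay below all sham libraries, whereas the KO TAC and Ctrl TAC libraries overlapped. Bcat2 fell by 18.9% in Ctrl hearts (log2 fold change -0.30 ± 0.06, SE, adjusted p = 0.000846) and fell by 26.3% in KO hearts (-0.44 ± 0.06, adjusted p = 8.57e-06), and the KO to Ctrl difference after TAC was -0.14 ± 0.06 (adjusted p = 0.173). Bcat1, the cytosolic enzyme that is scarce in heart muscle, moved the other way, from 0.66 ± 0.16 CPM in KO sham to 1.08 ± 0.227 CPM in KO TAC (0.72 ± 0.23 on the log2 scale, adjusted p = 0.0198). In Ctrl hearts Bcat1 was at 0.926 ± 0.214 CPM after sham surgery and 1.28 ± 0.238 CPM after TAC, which did not pass (0.47 ± 0.22, adjusted p = 0.15). Without the library labelled KO TAC 4 the KO change was 0.60 and was no longer called (adjusted p = 0.0709), and the call was also lost without KO sham 1, KO sham 2 or KO TAC 3.

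The 3 measured BCKDH subunits fell in both genotypes, and 2 of them, Bckdhb and Dbt, were lower in KO than in Ctrl hearts after TAC. Bckdha and Bckdhb encode the alpha and beta subunits of the decarboxylase component. The Bckdha values were 230, 215, 189 and 228 CPM in Ctrl sham and 233, 221, 212 and 241 CPM in KO sham. They were 159, 184, 168 and 153 CPM for Bckdha in Ctrl TAC and 147, 143, 132 and 136 CPM in KO TAC. For Bckdha the TAC libraries of each genotype lay below its sham libraries, and all KO TAC values lay below all Ctrl TAC values. Bckdha fell by 22.9% with TAC in Ctrl hearts (adjusted p = 0.000756) and fell by 38.5% in KO hearts (adjusted p = 4.47e-07), and its difference between KO TAC and Ctrl TAC, -0.25 ± 0.07, lay just outside the threshold (adjusted p = 0.0543).

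In the sham hearts Bckdhb was at 58.4, 53.1, 49.5 and 57.1 CPM with the Ctrl genotype and at 56.4, 52.6, 53 and 51.2 CPM with the KO genotype. After TAC, Bckdhb was at 32.3, 41.7, 37.2 and 32.4 CPM in the Ctrl libraries and at 30.8, 29.5, 27 and 28.5 CPM in the KO libraries. Its KO TAC libraries were all below its Ctrl TAC libraries, the nearest pair at 30.8 and 32.3 CPM. Bckdhb fell by 34.1% in Ctrl hearts (-0.60 ± 0.08, adjusted p = 2.01e-05), among the 4 largest falls there, and fell by 45.7% in KO hearts (-0.88 ± 0.08, adjusted p = 1.02e-07). It was lower in KO TAC than in Ctrl TAC (-0.31 ± 0.08, adjusted p = 0.0375), and not called without the library labelled KO TAC 4 (-0.30, adjusted p = 0.0699). This call was lost under 11 of 24 alternatives, 7 of which left out 1 library each.

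Dbt encodes the acyltransferase core of the complex. Dbt was measured at 92.1, 82.8, 82.5 and 82 CPM in Ctrl sham and at 79.9, 85, 84.2 and 84.2 CPM in KO sham. In Ctrl TAC, Dbt was at 59.3, 61.4, 66.6 and 57 CPM, and in KO TAC it was at 52.7, 48.5, 49 and 54.9 CPM. Ctrl TAC was below both sham groups, and KO TAC below Ctrl TAC, without overlap. Dbt fell by 28.0% in Ctrl hearts (adjusted p = 1.35e-05) and fell by 38.4% in KO hearts (adjusted p = 6.29e-08), and it was lower in KO TAC than in Ctrl TAC (-0.25 ± 0.06, adjusted p = 0.0285).

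The 2 regulators of the complex fell by unequal amounts. The kinase transcript Bckdk changed little. The Bckdk values were 71.6, 74.1, 68.4 and 71.9 CPM in Ctrl sham and 70.9, 71.8, 67.2 and 73.1 CPM in KO sham. They were 62.5, 64, 63.3 and 59.9 CPM for Bckdk in Ctrl TAC and 61.9, 59.7, 56.9 and 57.4 CPM in KO TAC. TAC and sham libraries did not overlap within either genotype, but the 2 TAC groups did overlap. Bckdk fell by 12.7% in Ctrl hearts (adjusted p = 0.00427) and fell by 16.6% in KO hearts (adjusted p = 0.000169). Its Ctrl call was lost with a term for the series of animal numbers described below (adjusted p = 0.0655). The phosphatase transcript Ppm1k showed the largest fall of the 36 in both genotypes. In the sham hearts Ppm1k was at 94.4, 95.9, 85.6 and 79.7 CPM with the Ctrl genotype and at 90.7, 88.3, 68.6 and 95.1 CPM with the KO genotype. After TAC, Ppm1k was at 41.8, 59.6, 53.3 and 45.5 CPM in the Ctrl libraries and at 39.1, 36.5, 38.4 and 39.5 CPM in the KO libraries. Every KO TAC library was at or below 39.5 CPM, under the lowest Ctrl TAC value of 41.8 CPM. Ppm1k fell by 43.7% in Ctrl hearts (-0.83 ± 0.11, adjusted p = 4.1e-05) and fell by 55.2% in KO hearts (-1.16 ± 0.11, adjusted p = 4.48e-07), and its KO TAC to Ctrl TAC difference of -0.38 ± 0.11 did not pass (adjusted p = 0.0615).

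**Figure D2:**
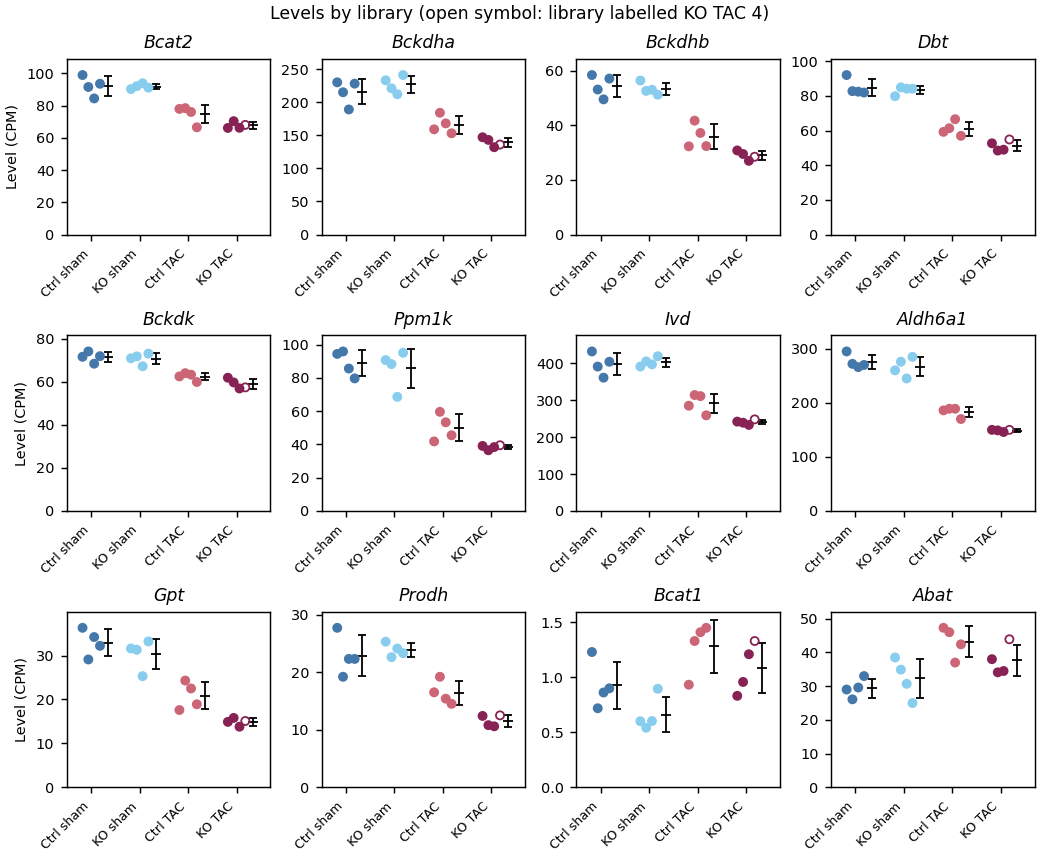
Level in CPM of 12 of the genes in each library (points), with the mean and SD of each group of 4 beside them. The open symbol is the library labelled KO TAC 4. Bckdha, Bckdhb, Dbt, Ppm1k, Ivd, Aldh6a1, Gpt and Prodh step down from sham to Ctrl TAC and again to KO TAC, while the Abat mean is 29.4 CPM in Ctrl sham and 43.2 CPM in Ctrl TAC and the Bcat1 mean is 0.66 CPM in KO sham and 1.08 CPM in KO TAC.

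Because kinase and phosphatase act against each other, their log2 ratio was taken in each library. Bckdk to Ppm1k stood at -0.40, -0.37, -0.32 and -0.15 in Ctrl sham and at -0.36, -0.30, -0.03 and -0.38 in KO sham. After TAC the ratio was 0.58, 0.10, 0.25 and 0.40 in Ctrl and 0.66, 0.71, 0.57 and 0.54 in KO libraries. The ratio was below 0 in each of the 8 sham libraries and above 0 in each of the 8 TAC libraries, on a scale of CPM that ignores transcript length. The TAC to sham difference was 0.64 in Ctrl and 0.88 in KO hearts, each with an exact permutation p of 0.0286 (two-sided, the smallest that 4 against 4 allows) and 0.0763 after adjustment over 8 comparisons. KO TAC exceeded Ctrl TAC by 0.29 (exact permutation p = 0.0857, adjusted 0.114), and KO sham exceeded Ctrl sham by 0.04 (exact permutation p = 0.6, adjusted 0.686). The log2 ratio of Bcat1 to Bcat2 was higher with TAC by 0.76 in Ctrl hearts (exact permutation p = 0.0571, adjusted 0.114) and by 1.13 in KO hearts (exact permutation p = 0.0286, adjusted 0.0763). Between genotypes it differed by -0.47 after sham surgery (exact permutation p = 0.0857, adjusted 0.114) and by -0.10 after TAC (exact permutation p = 0.743, adjusted 0.743). None of these 8 comparisons passed 0.05 after adjustment. Even those at the smallest possible exact permutation p, 0.0286, came to 0.0763, so the lack of a pass settles little about these ratios.

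**Figure D3:**
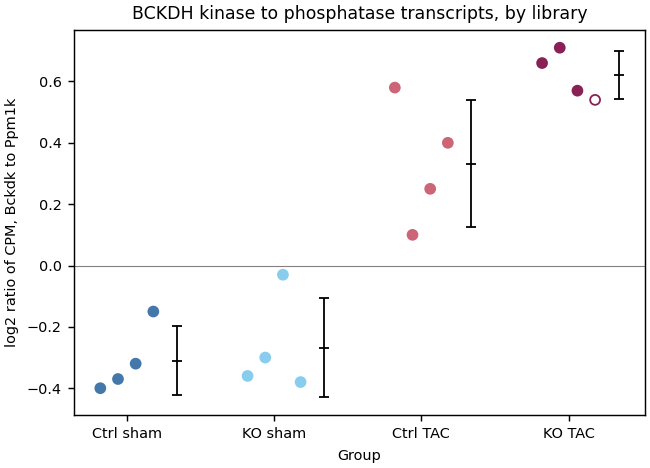
The log2 ratio of Bckdk to Ppm1k, from CPM, in each library, with the mean and SD of each group of 4. All 8 sham libraries lie below 0 and all 8 TAC libraries above it, with group means of -0.31, -0.27, 0.33 and 0.62 from left to right, and the open symbol is the library labelled KO TAC 4.

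Downstream of the complex, the 4 leucine genes fell in both genotypes. Ivd encodes isovaleryl-CoA dehydrogenase, which acts directly on the product of BCKDH. Ivd was measured at 432, 391, 361 and 404 CPM in Ctrl sham and at 391, 405, 397 and 419 CPM in KO sham. In Ctrl TAC, Ivd was at 285, 314, 311 and 259 CPM, and in KO TAC it was at 242, 239, 233 and 248 CPM. The Ctrl TAC values lay between those of sham and of KO TAC with no overlap on either side. Ivd fell by 26.3% in Ctrl hearts (adjusted p = 6.29e-05) and fell by 40.3% in KO hearts (adjusted p = 7.47e-08), and it was lower in KO TAC than in Ctrl TAC (-0.28 ± 0.06, adjusted p = 0.0229).

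Mccc1 encodes the biotin-carrying subunit of methylcrotonoyl-CoA carboxylase. The Mccc1 values were 134, 118, 115 and 122 CPM in Ctrl sham and 124, 124, 116 and 124 CPM in KO sham. They were 94.9, 102, 96.3 and 83.9 CPM for Mccc1 in Ctrl TAC and 76.6, 81.6, 76.1 and 77.5 CPM in KO TAC. Again the KO TAC libraries were the lowest, the nearest at 81.6 CPM against 83.9 CPM in Ctrl TAC. Mccc1 was lower in KO TAC than in Ctrl TAC (-0.27 ± 0.06, adjusted p = 0.0216). With TAC, Mccc1 changed by -0.37 ± 0.06 on the log2 scale in Ctrl hearts (adjusted p = 0.000198) and by -0.64 ± 0.06 in KO hearts (adjusted p = 2.11e-07). Its partner subunit Mccc2 was at 50.9 ± 4.52 and 51 ± 2.05 CPM in the Ctrl and KO sham groups and at 36.7 ± 3.27 and 31.5 ± 1.01 CPM after TAC, and the group means below keep this order. Auh, the hydratase of the next step, was at 77.7 ± 4.43, 77.4 ± 1.63, 64.2 ± 4.2 and 56.4 ± 2.99 CPM. Both fell with TAC in each genotype, and neither passed between KO TAC and Ctrl TAC (adjusted p = 0.0786 for Mccc2 and 0.0739 for Auh).

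Among the 4 valine genes the response was uneven. Aldh6a1, the methylmalonate semialdehyde dehydrogenase that ends the valine route, had the smallest adjusted p of the 36 for TAC in either genotype and for KO against Ctrl after TAC. In the sham hearts Aldh6a1 was at 295, 272, 266 and 270 CPM with the Ctrl genotype and at 260, 276, 245 and 285 CPM with the KO genotype. After TAC, Aldh6a1 was at 186, 189, 189 and 170 CPM in the Ctrl libraries and at 150, 149, 146 and 150 CPM in the KO libraries. The KO TAC libraries lay between 146 and 150 CPM, and the lowest Ctrl TAC library was at 170 CPM. Aldh6a1 fell by 33.5% in Ctrl hearts (-0.59 ± 0.05, adjusted p = 6.12e-07) and fell by 44.2% in KO hearts (-0.84 ± 0.05, adjusted p = 4.74e-09), and it was lower in KO TAC than in Ctrl TAC (-0.30 ± 0.05, adjusted p = 0.0109). At the threshold of 0.05 this difference was lost under only 1 of 24 alternatives. That was a term for the series of animal numbers described below (adjusted p = 0.0805). The difference, at an adjusted p of 0.0109 in the main fit, also missed the stricter threshold of 0.01.

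The valine enzymes upstream of Aldh6a1 moved less. Hibadh, hydroxyisobutyrate dehydrogenase, was at 218 ± 12.2, 225 ± 3.78, 186 ± 6.93 and 169 ± 7.66 CPM and fell in both genotypes (-0.23 ± 0.05, adjusted p = 0.00227, and -0.41 ± 0.05, adjusted p = 3.65e-06). Acad8, isobutyryl-CoA dehydrogenase, was at 40.5 ± 3.56, 42.4 ± 1.4, 39.6 ± 0.689 and 36.9 ± 2.49 CPM and passed in KO hearts (-0.20 ± 0.06, adjusted p = 0.0142), though not without KO TAC 3. The Acad8 change in Ctrl hearts was -0.03 ± 0.06, and the difference between those changes was -0.17 ± 0.08 (adjusted p = 0.482). Hibch, hydroxyisobutyryl-CoA hydrolase, was at 75.8 ± 6, 74.1 ± 2.48, 75.6 ± 7.81 and 71.4 ± 4.8 CPM, with no comparison past the threshold.

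Both isoleucine genes fell with TAC. Acadsb, the short/branched-chain acyl-CoA dehydrogenase, was at 175 ± 14, 172 ± 7.88, 131 ± 4.63 and 121 ± 4.52 CPM and fell by 25.1% in Ctrl hearts and fell by 29.6% in KO hearts. Hsd17b10 encodes a dehydrogenase that acts later in the route and is also a subunit of mitochondrial RNase P. Hsd17b10 was measured at 89.3, 94.2, 82 and 96.9 CPM in Ctrl sham and at 97.7, 92.2, 95.6 and 90.3 CPM in KO sham. In Ctrl TAC, Hsd17b10 was at 76.3, 87.4, 79.7 and 70.6 CPM, and in KO TAC it was at 66.2, 65, 64.4 and 65.9 CPM. The Ctrl TAC libraries overlapped those of Ctrl sham, whereas the KO TAC libraries, at 64.4 to 66.2 CPM, lay below all others. Hsd17b10 fell by 13.4% in Ctrl hearts (-0.21 ± 0.06, adjusted p = 0.022) and fell by 30.4% in KO hearts (-0.52 ± 0.06, adjusted p = 3.35e-06), and it was lower in KO TAC than in Ctrl TAC (-0.26 ± 0.06, adjusted p = 0.031). Its fall in Ctrl hearts lost significance under 6 of 24 alternatives, 4 of which left out 1 library each (Ctrl sham 2, Ctrl sham 4, Ctrl TAC 1 or Ctrl TAC 4).

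The propionate genes, which pass valine and isoleucine carbon to succinyl-CoA, fell in KO hearts for all 4 members and in Ctrl hearts for 3, and for all 4 each KO TAC library lay below each Ctrl TAC library. Pcca encodes the biotin-carrying subunit of propionyl-CoA carboxylase. The Pcca values were 94.7, 82.2, 80 and 87.1 CPM in Ctrl sham and 83.5, 86.3, 82.3 and 83.8 CPM in KO sham. They were 69.5, 67.7, 69.3 and 62.7 CPM for Pcca in Ctrl TAC and 58.5, 56.3, 54.9 and 56.5 CPM in KO TAC. No group overlapped the next in the order sham, Ctrl TAC, KO TAC. Pcca fell by 21.7% in Ctrl hearts and fell by 32.7% in KO hearts, and it was lower in KO TAC than in Ctrl TAC (-0.25 ± 0.05, adjusted p = 0.0194).

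Mut encodes methylmalonyl-CoA mutase, the vitamin B12-dependent last step. In the sham hearts Mut was at 152, 130, 129 and 135 CPM with the Ctrl genotype and at 127, 142, 127 and 141 CPM with the KO genotype. After TAC, Mut was at 101, 106, 110 and 92.6 CPM in the Ctrl libraries and at 84.9, 83.5, 81.6 and 88.2 CPM in the KO libraries. Sham, Ctrl TAC and KO TAC libraries formed 3 ranges with no overlap. Mut fell by 25.2% in Ctrl hearts and fell by 37% in KO hearts (-0.42 ± 0.06 and -0.67 ± 0.06) and was lower in KO TAC than in Ctrl TAC (-0.28 ± 0.06, adjusted p = 0.031). The other carboxylase subunit, Pccb, was at 120 ± 5.94, 123 ± 3.9, 101 ± 8.82 and 87.3 ± 4.03 CPM and fell in both genotypes, with a KO TAC to Ctrl TAC difference of -0.22 ± 0.06 (adjusted p = 0.0543). The epimerase Mcee was at 43.5 ± 3.81, 43.4 ± 2.23, 37.8 ± 1.93 and 32.9 ± 3.54 CPM and passed in KO hearts only (-0.40 ± 0.07, adjusted p = 0.000435, against -0.21 ± 0.07, adjusted p = 0.0614, in Ctrl hearts), with a difference between the changes of -0.19 ± 0.11 (adjusted p = 0.519).

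The transaminases of glutamate, which also carry reducing equivalents through the malate-aspartate shuttle in the case of Got1 and Got2, fell in both genotypes, as did glutamate dehydrogenase. Got1 was measured at 780, 579, 694 and 713 CPM in Ctrl sham and at 670, 676, 714 and 652 CPM in KO sham. In Ctrl TAC, Got1 was at 560, 598, 543 and 500 CPM, and in KO TAC it was at 433, 425, 459 and 478 CPM. The KO TAC libraries of Got1, the cytosolic aspartate transaminase, lay below the Ctrl TAC libraries, and Ctrl TAC overlapped Ctrl sham through Ctrl sham 2. Got1 fell by 20.4% in Ctrl hearts (adjusted p = 0.00425) and fell by 33.8% in KO hearts (adjusted p = 7.65e-06), and it was lower in KO TAC than in Ctrl TAC (-0.29 ± 0.07, adjusted p = 0.0423). That last call was the least stable of the 12, lost under 15 of 24 alternatives. Apart from Aldh6a1, the other calls of the 12 were lost under 5 (Gpt and Prodh) to 11 (Bckdhb) of the 24, with Dbt and Ivd at 8.

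Gpt and Gpt2 encode the cytosolic and mitochondrial alanine transaminases. The Gpt values were 36.3, 29.1, 34.2 and 32.2 CPM in Ctrl sham and 31.6, 31.3, 25.3 and 33.2 CPM in KO sham. They were 17.6, 24.3, 22.5 and 18.9 CPM for Gpt in Ctrl TAC and 14.9, 15.8, 13.8 and 15.1 CPM in KO TAC. Gpt fell by 36.8% in Ctrl hearts (-0.66 ± 0.10, adjusted p = 0.000144) and fell by 51.0% in KO hearts (-1.03 ± 0.10, adjusted p = 5.65e-07), and it was lower in KO TAC than in Ctrl TAC (-0.48 ± 0.10, adjusted p = 0.02), with no overlap between the libraries. The call for Gpt between KO TAC and Ctrl TAC was lost without Ctrl TAC 2, Ctrl TAC 3 or KO TAC 3. Ctrl TAC 2, the library with hepatocyte transcripts, held the highest Ctrl TAC value of Gpt. In the sham hearts Gpt2 was at 39.3, 25.3, 35.6 and 36.5 CPM with the Ctrl genotype and at 32, 30.7, 28.3 and 37.2 CPM with the KO genotype. After TAC, Gpt2 was at 18.8, 25.9, 23.5 and 19.3 CPM in the Ctrl libraries and at 17.6, 16.9, 15.8 and 18.7 CPM in the KO libraries. Gpt2 libraries of the 2 TAC groups met at 18.7 and 18.8 CPM, and Ctrl sham 2 lay within the Ctrl TAC range. Gpt2 fell by 35.9% in Ctrl hearts (-0.64 ± 0.13, adjusted p = 0.00206) and fell by 46.1% in KO hearts (-0.89 ± 0.13, adjusted p = 5.67e-05), with a KO TAC to Ctrl TAC difference of -0.34 ± 0.13 (adjusted p = 0.162). The mitochondrial Got2 was at 820 ± 46.6, 831 ± 21.4, 740 ± 10.5 and 661 ± 12.3 CPM, and its fall was small in Ctrl hearts (-0.15 ± 0.04, adjusted p = 0.0248, lost without Ctrl sham 1 or Ctrl TAC 4) and was estimated at more in KO hearts (-0.33 ± 0.04, adjusted p = 1.56e-05). Glud1, glutamate dehydrogenase, was at 158 ± 2.94, 153 ± 4.67, 138 ± 5.6 and 125 ± 3.11 CPM and fell by 12.9% in Ctrl and fell by 18.6% in KO hearts.

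Of the 3 lysine and tryptophan genes, Dhtkd1 showed the widest change. Dhtkd1 encodes the decarboxylase of the oxoadipate dehydrogenase complex. Dhtkd1 was measured at 6.84, 8.01, 6.54 and 5.24 CPM in Ctrl sham and at 7.94, 7.61, 7.88 and 7.73 CPM in KO sham. In Ctrl TAC, Dhtkd1 was at 4.45, 4.89, 4.71 and 4.14 CPM, and in KO TAC it was at 3.47, 3.61, 4.08 and 4.36 CPM. Sham and TAC libraries did not overlap within a genotype, and the 2 TAC groups overlapped. Dhtkd1 fell by 31.8% in Ctrl hearts (-0.55 ± 0.11, adjusted p = 0.00164) and fell by 50.1% in KO hearts (adjusted p = 1.89e-06), and the difference between KO TAC and Ctrl TAC was -0.23 ± 0.11 (adjusted p = 0.292). Gcdh, glutaryl-CoA dehydrogenase, was at 65.1 ± 4.86, 66.1 ± 2.88, 45.1 ± 2.27 and 40.4 ± 1.35 CPM and fell by 30.7% in Ctrl and fell by 38.8% in KO hearts. Aldh7a1, aminoadipate semialdehyde dehydrogenase, was at 38.5 ± 0.677, 38.7 ± 1.07, 35.5 ± 1.39 and 32.7 ± 1.39 CPM and passed in KO hearts only (-0.24 ± 0.04, adjusted p = 0.000347, against -0.12 ± 0.04, adjusted p = 0.0768), with a difference between the changes of -0.13 ± 0.06 (adjusted p = 0.464).

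Both proline genes were lower in KO TAC than in Ctrl TAC. Prodh encodes proline dehydrogenase, the first enzyme of proline breakdown. The Prodh values were 27.7, 19.2, 22.3 and 22.3 CPM in Ctrl sham and 25.3, 22.6, 24.1 and 23.3 CPM in KO sham. They were 16.5, 19.2, 15.4 and 14.5 CPM for Prodh in Ctrl TAC and 12.4, 10.8, 10.6 and 12.5 CPM in KO TAC. The highest Ctrl TAC library and the lowest Ctrl sham library were both at 19.2 CPM, while no KO TAC library reached the Ctrl TAC range. Prodh fell by 28.3% in Ctrl hearts (-0.48 ± 0.10, adjusted p = 0.00235) and fell by 51.4% in KO hearts (-1.04 ± 0.10, adjusted p = 4.76e-07), and it was lower in KO TAC than in Ctrl TAC (-0.50 ± 0.10, adjusted p = 0.0184). The call for Prodh between KO TAC and Ctrl TAC was lost without Ctrl TAC 2, KO TAC 2 or KO TAC 3. Ctrl TAC 2, the library with hepatocyte transcripts, held the highest Ctrl TAC value of Prodh. Aldh4a1 encodes the dehydrogenase that turns the product of Prodh to glutamate. In the sham hearts Aldh4a1 was at 141, 132, 130 and 142 CPM with the Ctrl genotype and at 135, 140, 136 and 144 CPM with the KO genotype. After TAC, Aldh4a1 was at 107, 115, 107 and 93 CPM in the Ctrl libraries and at 92.6, 85.9, 80.4 and 89.1 CPM in the KO libraries. Its 2 TAC groups came within 92.6 and 93 CPM of each other without overlap. Aldh4a1 fell by 22.7% in Ctrl and fell by 37.2% in KO hearts and was lower in KO TAC than in Ctrl TAC (-0.28 ± 0.06, adjusted p = 0.0224).

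The GABA pair split. Abat, GABA transaminase, rose in Ctrl hearts from 29.4 ± 2.83 to 43.2 ± 4.59 CPM (0.55 ± 0.12, adjusted p = 0.00369) and was at 32.3 ± 5.82 CPM in KO sham and 37.6 ± 4.5 CPM in KO TAC (0.22 ± 0.12, adjusted p = 0.171). The difference between those changes was -0.33 ± 0.17 (adjusted p = 0.487). Aldh5a1, succinate semialdehyde dehydrogenase, was at 47.2 ± 3.07, 46.1 ± 3.4, 33.9 ± 2.8 and 30.4 ± 1.36 CPM and fell by 28.3% in Ctrl hearts and fell by 34.1% in KO hearts.

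Of the 3 glycine cleavage genes none was called with TAC in Ctrl hearts and 1 in KO hearts, with Amt and Gldc at low levels. Gcsh, the lipoyl carrier protein of the system, was at 42.7 ± 2.6, 44.6 ± 0.339, 43.3 ± 1.86 and 42.5 ± 2.36 CPM with no call. Amt, its aminomethyltransferase, was at 4.33 ± 0.64, 4.59 ± 0.631, 3.92 ± 0.444 and 3.46 ± 0.47 CPM and fell in KO hearts (-0.41 ± 0.13, adjusted p = 0.026), a call lost without KO TAC 3, KO sham 1 or KO sham 2. Gldc was under 1.1 CPM in every library and had no call. It reached 1.05 CPM in Ctrl TAC 2, the library with hepatocyte transcripts, against 0.348 to 0.546 CPM in the other Ctrl TAC libraries, and its KO TAC to Ctrl TAC estimate moved from -0.93 ± 0.45 to -0.47 ± 0.44 without that library.

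**Figure D4:**
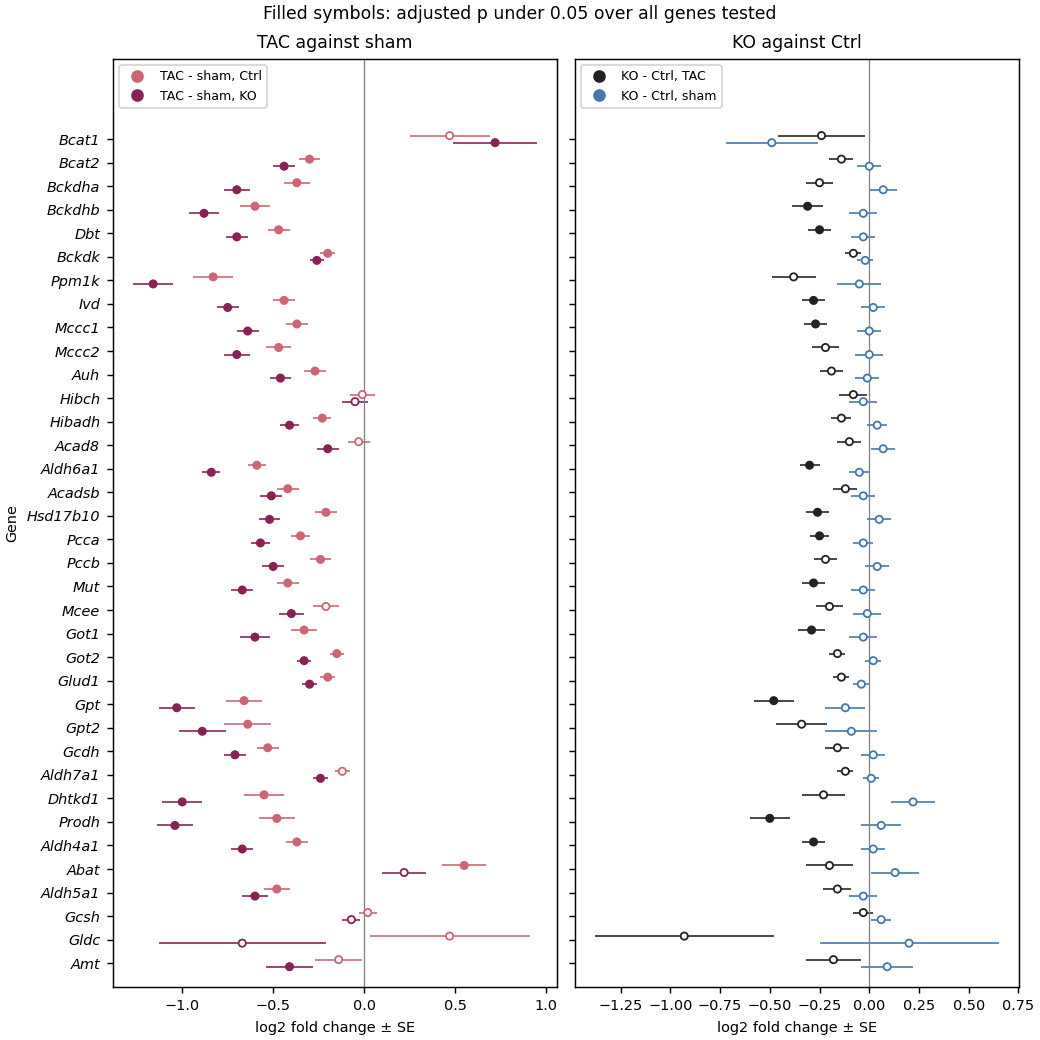
Log2 fold change ± SE of each of the 36 genes for TAC against sham in each genotype (left) and for KO against Ctrl after each operation (right), with filled symbols at an adjusted p under 0.05. On the left 27 Ctrl and 31 KO symbols are filled below 0, and on the right 12 are filled after TAC, all below 0, and none after sham surgery.

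The per-library median over the 36 genes summarises the shift. Relative to the Ctrl sham mean it was -0.07 to 0.12 in Ctrl sham, -0.03 to 0.03 in KO sham, -0.46 to -0.24 in Ctrl TAC and -0.64 to -0.54 in KO TAC, in log2 CPM. The library labelled KO TAC 4 thus sat with the other KO TAC libraries for these genes, though not for Cardinal. Animal numbers in the labels begin with 25 for Ctrl TAC 2, 3 and 4 and for the library labelled KO TAC 4, and with 3 for all others. Genotype and number series therefore largely coincide among the TAC hearts. All sham hearts are of the series that starts with 3, so operation and series also largely coincide among the Ctrl hearts. Within the series that starts with 3 (Ctrl TAC 1 against KO TAC 1, 2 and 3), 34 of the 36 genes had a lower mean in KO (50.4% of all genes) and 33 did not overlap (29.9% of all genes), with a median difference of -0.22. Within the series that starts with 25 (Ctrl TAC 2, 3 and 4 against the library labelled KO TAC 4), 35 were lower (49.4% of all genes) and 29 did not overlap (26.5% of all genes), with a median of -0.18. In both series 33 genes were lower (29.4% of all genes), and for 27 each KO TAC library lay below each Ctrl TAC library of its series (11.0% of all genes). Each series holds 1 library in a group, so groups that do not overlap are common there. In the series that starts with 25, the KO side is the library labelled KO TAC 4 alone. Its Cardinal level of 4.55 CPM goes against that label, so the KO side of that series has an uncertain genotype. With that series as a model term none of the 36 was called between KO TAC and Ctrl TAC (0.0657% of all genes), although 35 estimates stayed below 0, 23 had an unadjusted p under 0.05 and the median was -0.21. The same term left 22 of the 36 called for TAC against sham in Ctrl hearts (13.6% of all genes). Bckdk, Auh, Hsd17b10, Pccb, Got2 and Glud1 were no longer among them. The numbers of KO sham 1, 2 and 3 and of Ctrl sham 4 start with 33, and no TAC number does. Such numbers and operation thus largely coincide among the KO hearts. A term for them left 30 of the 36 called for TAC against sham in KO hearts (26.4% of all genes). Bcat1, Acad8 and Amt were no longer called there.

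**Figure D5:**
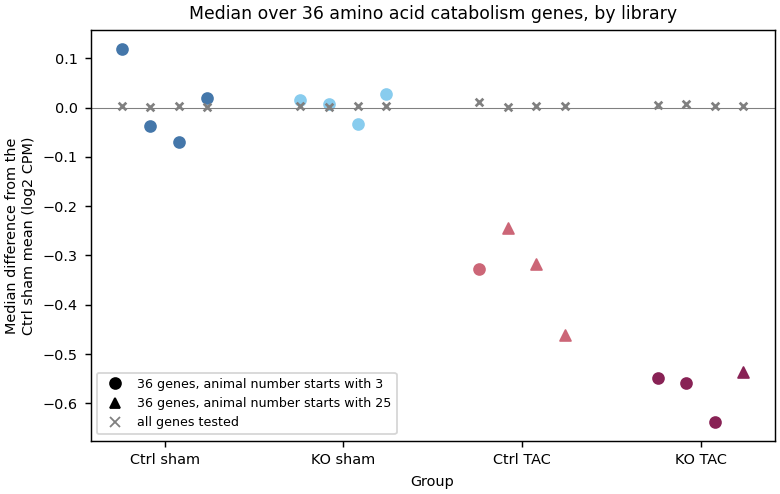
Median over the 36 genes of the difference in log2 CPM from the Ctrl sham mean, by library, with circles and triangles for the 2 series of animal numbers and crosses for the median over all genes tested. The Ctrl TAC libraries lie between -0.46 and -0.24 and the KO TAC libraries between -0.64 and -0.54, in both series, while the crosses stay near 0.

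Enzymes and cofactor genes that serve these routes and others as well were examined as a further list of 16, of which 15 were tested. With TAC 10 of the 15 fell in Ctrl and 13 in KO hearts, none rose, and the medians were -0.32 and -0.47. Over all genes tested 9.60% fell in Ctrl and 16.5% in KO hearts, and 1.32% were lower in KO TAC than in Ctrl TAC. Between KO TAC and Ctrl TAC 5 were lower, with a list median of -0.19: Dld, the shared dehydrogenase subunit of BCKDH and related complexes (-0.19 ± 0.04, adjusted p = 0.0338), the fatty acid oxidation enzymes Hadha (-0.31 ± 0.08, adjusted p = 0.0414) and Hadh (-0.42 ± 0.08, adjusted p = 0.0141), and the electron transfer flavoprotein subunits Etfa (-0.29 ± 0.05, adjusted p = 0.0131) and Etfb (-0.33 ± 0.06, adjusted p = 0.0145). Klf15, a transcription factor known to regulate branched-chain amino acid catabolism in heart, fell from 60.2 to 41 CPM in Ctrl hearts (-0.55 ± 0.15, adjusted p = 0.0174) and from 58.9 to 27.5 CPM in KO hearts (-1.10 ± 0.15, adjusted p = 5.57e-05). Its KO TAC to Ctrl TAC difference was -0.58 ± 0.15 (adjusted p = 0.0545). Slc25a44, the mitochondrial carrier of branched-chain amino acids, was at 19.2 and 18.9 CPM in Ctrl sham and Ctrl TAC and was not called in any comparison.

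A list of 12 general mitochondrial genes, among them citrate synthase (Cs) and the outer membrane channel Vdac1, had medians of -0.06 with TAC in Ctrl hearts (5 lower, 1 higher), -0.22 in KO hearts (8 lower, none higher) and -0.13 between KO TAC and Ctrl TAC, where none passed. Beside these stood the shifts in cell type markers. The summed level of 9 cardiomyocyte markers was 52300 to 60100 CPM in Ctrl sham, 52800 to 58600 in KO sham, 46200 to 50900 in Ctrl TAC and 39500 to 42300 in KO TAC. The 9 did not move as 1: with TAC 2 rose and 5 fell in Ctrl hearts, and 1 rose and 6 fell in KO hearts. Between KO TAC and Ctrl TAC 2 of the 9, Myh6 and Ryr2, were lower. The summed level of 8 fibroblast markers was 579 to 706, 610 to 645, 1120 to 1590 and 1830 to 2000 CPM, and 2 of the 8, Postn and Col1a2, were higher in KO TAC. In bulk tissue fewer cells of a type and less RNA per cell cannot be told apart, and the part of these shifts in the results above was not tested. Of the macrophage markers 3 of 7 rose with TAC in Ctrl hearts and 6 in KO hearts (Cd163 was lower in KO TAC than in Ctrl TAC), smooth muscle and pericyte markers rose for 2 and 3 of 6, and none of 6 endothelial or 5 red blood cell markers was called in any comparison. Beside the counts of these lists, 9.60% of all genes fell and 10.4% rose with TAC in Ctrl hearts, and 16.5% and 17.8% in KO hearts. Between KO TAC and Ctrl TAC 1.32% of all genes were lower and 1.36% higher. The 4 adipocyte markers were too low to test, with leptin (Lep) at 0 in 15 libraries.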

How the data were processed

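Poly(A) RNA of the 16 heart samples was sequenced as paired-end 150-base reads. The authors deposited raw counts per Ensembl gene. The submitters' processing notes name cutadapt 2.3, FastQC, HISAT2 2.1.0, edgeR 3.26.1 and GRCm38; the counting program and use of strand are not given in the sources used here. Symbols came from GENCODE M21, which matched 55141 of the 55487 identifiers.

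Counts were filtered by expression (minimum count 10), TMM-scaled and fitted with edgeR 4.0.16 in R 4.3.3 (quasi-likelihood, robust, 1 mean per group, all 16 libraries), with Benjamini-Hochberg adjustment over 18275 genes and a threshold of 0.05. SE is the log2 fold change over the square root of F. DESeq2 1.42.0, other filters and scalings, terms for animal-number series and leaving out libraries were alternatives. The fit was tested on simulated data. All 36 members are named. Those called between KO TAC and Ctrl TAC, the 4 with the largest called change in either TAC comparison, and Bcat2, Bckdha, Bckdhb, Dbt, Bckdk and Ppm1k are given by library. Members and lists were chosen with earlier results of these data known. Replicate numbers follow the order of deposition.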

Additional observations from a re-analysis of the deposited data

Results flagged for a closer look

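Of 152 group values examined with Dixon's test (95% critical value for 4 samples), 12 had a library far from the other 3, and chance flags about 1 in 20 groups. In Ctrl sham, Dbt was at 92.1 CPM in library 1 against 82 to 82.8 CPM in the others, and Mccc2 was at 57.7 CPM in library 1 against 48 to 49.4 CPM. In KO sham, Bcat1 was at 0.896 CPM in library 4 against 0.542 to 0.603 CPM, Dbt at 79.9 CPM in library 1 against 84.2 to 85 CPM, Mccc1 at 116 CPM in library 3 against 124 CPM, and Mcee at 46.7 CPM in library 3 against 41.9 to 42.6 CPM. In Ctrl TAC, Aldh6a1 was at 170 CPM in library 4 against 186 to 189 CPM, and Gcsh at 40.6 CPM in library 2 against 44.1 to 44.6 CPM. In KO TAC, Mccc2 was at 33 CPM in library 2 against 30.9 to 31.2 CPM, and Gldc was at 0.39 CPM in library 2 against 0.261 to 0.282 CPM. Library 3 of KO TAC was the low one for Mcee, at 27.6 CPM against 34.3 to 35 CPM, and for Amt, at 2.76 CPM against 3.66 to 3.76 CPM.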

How the results depend on the processing

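The number of the 36 genes called for TAC ranged from 22 to 29 in Ctrl hearts and from 29 to 32 in KO hearts over the alternatives. The share called over all genes ranged from 8.16% to 23.3% in Ctrl and from 14.9% to 38.7% in KO hearts. For KO against Ctrl after sham surgery the number was 0 in each, with at most 0.0164% of all genes called. No estimate that had been called changed sign under any alternative run. The number lower in KO TAC than in Ctrl TAC, 12 as reported, was 19 with DESeq2, 0 at an adjusted p under 0.01, 0 with the animal-number series starting with 25 as a term, 4 with only the compared groups in the fit, 1 without both Ctrl TAC 2 and the library labelled KO TAC 4, and 1 to 19 with any single library left out. Over all genes the share called, 2.68% as reported, was 6.46%, 0.104%, 0.0657%, 0.877% and 0.594% under the first 5 of these, and 0.342% to 3.96% with a library left out. The interaction called 0 of the 36 with edgeR and 1 with DESeq2 (0.722% of all genes). The causes were not tested. No paired analysis was possible because the replicate numbers follow the order of deposition and the labels pair no animals across groups.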

Other observations

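Genes of amino acid uptake and synthesis were described beside those of breakdown. Of 13 amino acid transporters, 4 rose and 4 fell with TAC in Ctrl hearts and 6 rose and 4 fell in KO hearts, with a median log2 fold change of 0.18 in each. Over all genes 10.4% rose and 9.60% fell in Ctrl hearts, and 17.8% rose and 16.5% fell in KO hearts. The plasma membrane transporters Slc7a5 (0.72 in Ctrl and 0.69 in KO) and Slc38a2 (0.40 and 0.67) rose, whereas the mitochondrial glutamate carrier Slc25a22 (-0.66 and -0.83) and the cationic transporter Slc7a1 (-0.62 and -0.59) fell. Between KO TAC and Ctrl TAC 1 of the 13 was called (2.68% of all genes), the aspartate-glutamate carrier Slc25a12 (-0.21, adjusted p = 0.0498).

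Of 15 genes of amino acid synthesis, 4 rose and 3 fell in Ctrl hearts and 5 rose and 3 fell in KO hearts. None was called between KO TAC and Ctrl TAC by edgeR. The shares over all genes given for the transporters apply here too. The proline synthesis genes Pycr1 (1.77 in Ctrl and 0.95 in KO) and Aldh18a1 (0.80 and 0.75) rose with TAC while the proline breakdown genes Prodh and Aldh4a1 fell. The mitochondrial folate enzyme Mthfd2 (0.75 and 1.03) and the serine synthesis gene Psat1 (0.57 and 0.39) also rose, and Cth, which makes cysteine, fell (-0.73 and -1.02).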
